A study of Mus musculus with 6 samples.

Results

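Mitosis depends on a set of genes that are switched on together late in the cell cycle, and 55 of them were followed in RNA-seq of cultured mouse lung endothelial cells (MLECs) that carry one of the forms of the transcriptional repressor HEY1. Both groups came from Hey1 iEC-KO mice; 3 libraries carried a HEY1-WT iEC-KI and 3 a HEY1-3KR iEC-KI, called HEY1-WT KI and HEY1-3KR KI from here on. The labels spell out neither iEC nor 3KR, list no treatment, and do not give age, number of mice, how the cells were purified or what drives the knockout and knock-in; the series title concerns SUMOylation of HEY1. The 55 symbols were chosen for their roles in mitosis, and all 55 were found among the 17463 entries of the deposited FPKM table, a unit scaled to transcript length and library depth. They fall into kinases and cyclins with their transcription factor (8 genes), checkpoint and anaphase genes (9), kinetochore genes (10), the chromosomal passenger complex (4), spindle motors and assembly factors (13), cytokinesis genes (4), and condensation and chromatin genes (7). The Hey1 entry itself stood at 2.21, 2.16 and 2.25 FPKM with HEY1-WT KI and 5.71, 5.24 and 4.87 FPKM with HEY1-3KR KI; whether it counts the knock-in transcript is not stated, so it does not check the labels.

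Cells enter mitosis when cyclin-dependent kinase 1 is switched on by B-type cyclins, and Aurora and Polo-like kinases then organise the spindle. Kinetochores, protein assemblies on the centromere, capture microtubules, the spindle checkpoint holds back the anaphase-promoting complex until all are attached, and separase then cuts the cohesin that joins sister chromatids. Transcripts of these genes accumulate late in the cycle, mostly under FOXM1 and the MYB-MuvB complex, whereas in resting cells the related DREAM complex represses many of them through a promoter element called the cell cycle genes homology region (CHR), often found beside CCAAT boxes. Most adult lung endothelial cells rest in vivo, while cells in serum-containing growth medium, as here, can divide.

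Of the 55 genes, 52 were higher in HEY1-3KR KI, Pttg1 was lower, and Cenph and Cenpk did not pass the test. A gene was called at an adjusted p below 0.05 (limma on log2(FPKM + 1), Benjamini-Hochberg adjustment over the 11432 genes reaching 1 FPKM in 3 or more libraries). All 55 passed that filter: 53 had at least 1 FPKM in all 6 libraries, Cenpk in 5, and Kif18a in 4, of which 3 were HEY1-3KR KI. Over all genes tested, 29.9% were called higher and 23.4% lower. That balance turned under other scalings, to 26.4% higher and 27.1% lower with median-of-ratios scaling and to 25.4% and 28.8% with quantile normalization, while 52 of the 55 genes were called higher under both. The highest HEY1-WT KI library was below the lowest HEY1-3KR KI library for the same number, 52 genes, where 34.1% of all genes tested separated upwards and 27.0% downwards. The median log2 fold change of the 55 was 0.73, beside 0.02 over all genes tested, and the median ratio of FPKM was 1.74-fold. Of the 55, 47 were called and at least 1.5-fold higher by FPKM (10.1% of all genes tested), and 9 were called and at least 2-fold higher (4.42%).

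Summed over the 55 genes, their level was 587, 571 and 580.1 FPKM in HEY1-WT KI and 1025, 1029 and 1010 FPKM in HEY1-3KR KI, which is 0.220% ± 0.000861 and 0.389% ± 0.00844 of all FPKM (SD, n = 3 libraries). The 3 libraries of each genotype lay close together and the genotypes did not overlap. In bulk RNA, more dividing cells and more of each transcript per cell cannot be told apart. The labels do not say that replicates are separate mice or cultures: p-values therefore reflect only how these 6 libraries vary, possibly for technical reasons, and any batch common to the libraries of 1 genotype cannot be told apart from genotype. Across genes, Pearson's r was 0.994 to 0.996 within a genotype and 0.960 to 0.964 between genotypes.

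**Figure D1:**
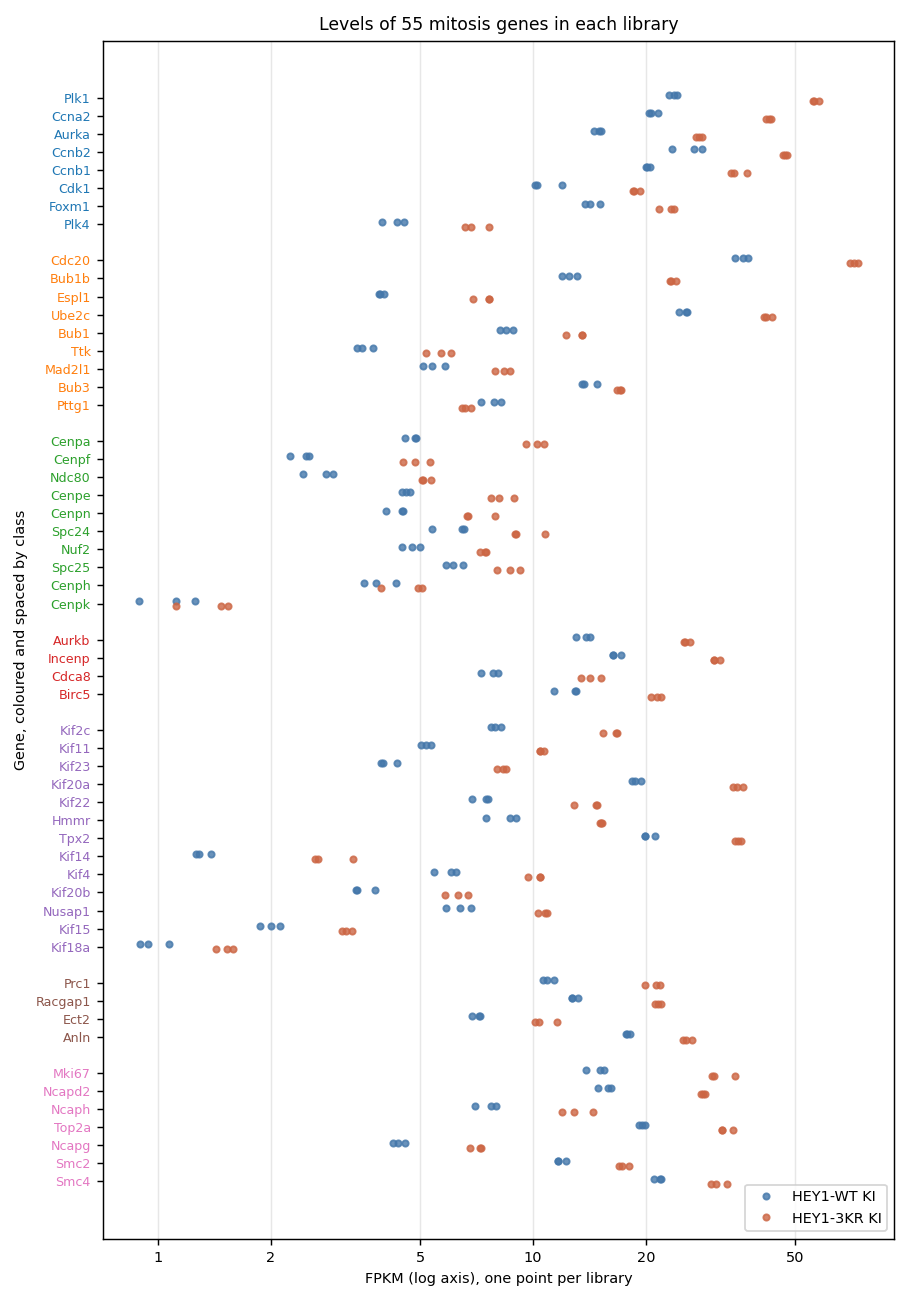
FPKM of the 55 mitosis genes on a log axis, with 1 point per library, HEY1-WT KI in blue and HEY1-3KR KI in orange, and genes grouped by class. The HEY1-3KR KI points lie to the right of all HEY1-WT KI points for 52 genes, to the left for Pttg1, and overlap them for Cenph and Cenpk.

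Most of the 55 genes moved together, so their promoters were examined. RefSeq promoters (GRCm38.p6, the assembly of mm10; 250 bases before to 50 after the start) were matched by gene ID for 47 of the 55 genes, which have 52 promoters in the table, some from alternative starts of 1 gene that overlap. A CHR was searched as TTTGAA or TTCGAA on both strands, and a CCAAT box as CCAAT on both strands, and the letters of both can share a base. The CHR letters were present in 38 of the 52 promoters (73.1%), against 13.9% of 11648 promoters of genes tested and 19.2% of all 32851 promoters. CCAAT was present in 39 (75.0%), against 37.5% and 37.4%. Both stood in 33 of the 52 (63.5%), against 5.67% and 7.52%. HEY proteins bind E-boxes and related sites: CACGTG was present in 3 of the 52 promoters (5.77%; 10.1% of promoters of genes tested and 7.15% of all), and CACGCG, on either strand, in 4 (7.69%; 16.8% and 9.27%). These matches are descriptions of letters, not of binding.

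Of the more strongly raised genes with both motifs near the start, 5 are shown first, followed by Cenph, which did not pass the threshold, and Pttg1, which was lower. The 5 were not taken by rank: Kif11, Kif23 and Kif22 also held both motifs, with larger changes than Aurka and Ccnb2, and are not shown. Each run is 150 bases, from 100 before the start to 50 after it, written 5′ to 3′ on the gene's strand, with CHR and CCAAT letters in capitals. Their positions are chr7:122159335-122159484 on the plus strand for Plk1, chr4:118437294-118437443 on the minus strand for Cdc20, chr5:30666786-30666935 on the plus strand for Cenpa, chr2:172370521-172370670 on the minus strand for Aurka, chr9:70421505-70421654 on the minus strand for Ccnb2, chr13:100775850-100775999 on the minus strand for Cenph and chr11:43425932-43426081 on the minus strand for Pttg1.
Plk1: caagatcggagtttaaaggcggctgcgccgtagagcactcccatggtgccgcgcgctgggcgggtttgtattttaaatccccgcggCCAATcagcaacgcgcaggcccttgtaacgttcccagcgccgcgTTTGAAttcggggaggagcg
Cdc20: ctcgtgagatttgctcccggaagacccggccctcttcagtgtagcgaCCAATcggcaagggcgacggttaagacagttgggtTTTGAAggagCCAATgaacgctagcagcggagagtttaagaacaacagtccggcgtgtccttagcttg
Cenpa: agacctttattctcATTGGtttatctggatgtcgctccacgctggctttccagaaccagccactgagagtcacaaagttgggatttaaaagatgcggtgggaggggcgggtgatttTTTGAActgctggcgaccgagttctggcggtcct
Aurka: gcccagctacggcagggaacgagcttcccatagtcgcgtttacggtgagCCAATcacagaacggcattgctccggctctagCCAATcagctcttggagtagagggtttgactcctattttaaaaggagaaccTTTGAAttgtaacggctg
Ccnb2: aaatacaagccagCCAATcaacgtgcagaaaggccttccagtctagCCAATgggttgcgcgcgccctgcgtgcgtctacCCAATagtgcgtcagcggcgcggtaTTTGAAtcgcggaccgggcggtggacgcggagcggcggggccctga
Cenph: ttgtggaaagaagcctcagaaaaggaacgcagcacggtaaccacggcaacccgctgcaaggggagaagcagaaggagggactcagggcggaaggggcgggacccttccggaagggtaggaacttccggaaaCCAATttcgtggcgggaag
Pttg1: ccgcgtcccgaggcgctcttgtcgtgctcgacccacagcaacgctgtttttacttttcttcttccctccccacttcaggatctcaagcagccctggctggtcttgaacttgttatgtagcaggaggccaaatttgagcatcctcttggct
A CHR lies within 50 bases of the start in the first 5 runs, and no CHR letters are in the window of Cenph or Pttg1. The table's start for Pttg1, at 43425981, lies inside the annotated gene, which extends to 43427463, and that of Aurka, at 172370570, inside a gene that extends to 172370886, so these windows may not hold the main start. The same holds for Kif2c, with a start at 117178772 in a minus-strand gene that extends to 117182624. It also holds for Kif14, with a start at 136467848 in a plus-strand gene that begins at 136466301. In the 50 bases after the start, 20 of the 52 promoters held a CHR (38.5%), against 1.72% of promoters of genes tested. In the 50 bases before it, 13 of the 52 held one, against 221 of 11648. The 35 members with a CHR in any promoter in the table were all called higher (median log2 fold change 0.75), and of the 12 without one, 9 were called higher (median 0.58). Cenph, Cenpk and Pttg1 are the other 3 of those 12, so the split rests on these 3 genes. Over all genes tested, 29.9% were called higher, and over the 55 genes 52. Among the 9 called higher without a CHR, none of which is shown above, Ccnb1 rose 1.74-fold, Cenpe 1.80-fold, Ncaph 1.73-fold and Birc5 1.71-fold. Bub3 held both motifs and rose 1.21-fold. Of 34 members with a CCAAT box 32 were called higher, and of 13 without one, 12. All 3 members with CACGTG were called higher, and 41 of 44 without it. All 4 members with CACGCG were called higher, and 40 of 43 without it. The CHR split depends on the listed starts. These lie well inside the gene for Kif2c, Kif14, Aurka, Ncapd2 and Ect2 (with a CHR) and for Pttg1 (without one), and smaller offsets occur in other members. Whether the motifs bear on the changes was not tested.

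**Figure D2:**
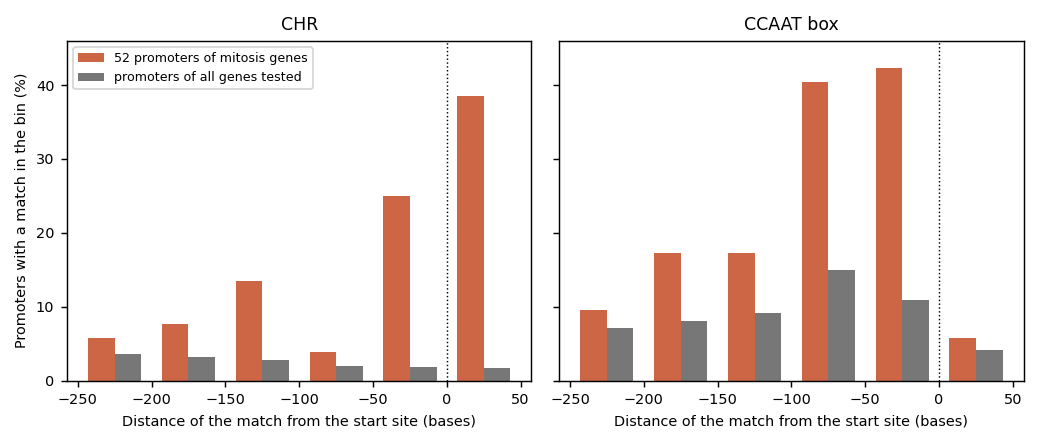
Percent of promoters with a CHR (left) or a CCAAT box (right) starting in each 50-base bin, by distance from the start site, for the 52 promoters of mitosis genes (orange) and for promoters of all genes tested (grey). The CHR bars of mitosis genes are highest in the bins just before and after the start, reaching 38.5% after it, and the CCAAT bars between 100 and 1 bases before it, at 40.4% and 42.3%.

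Mitotic kinases and cyclins were all higher in HEY1-3KR KI, 8 of 8, with a class median log2 fold change of 0.79. Plk1, the Polo-like kinase that acts from mitotic entry to cytokinesis, stood at 24.2, 23.7 and 23.0 FPKM with HEY1-WT KI and 56.2, 57.7 and 55.8 FPKM with HEY1-3KR KI. Its groups were far apart, its log2 fold change, given here and elsewhere ± SE, was 1.23 ± 0.0354 (adjusted p = 3.8e-08; limma with Benjamini-Hochberg adjustment), and its 2.39-fold ratio was the highest of the 55. Ccna2, cyclin A2 of S phase and mitotic entry, stood at 21.5, 20.6 and 20.4 FPKM with HEY1-WT KI and 43.2, 42.6 and 41.9 FPKM with HEY1-3KR KI, a change of 1.00 ± 0.0361 (adjusted p = 1.2e-07). Cyclin B2, Ccnb2, an activator of CDK1, was the second most abundant of the class at 28.2, 23.4 and 26.9 FPKM with HEY1-WT KI and 47.4, 46.5 and 46.9 FPKM with HEY1-3KR KI. HEY1-WT KI replicate 2 was the lowest of those values and the genotypes did not overlap (0.82 ± 0.0610). Plk4, the kinase that starts centriole duplication, had the smallest change of the class on the log2(FPKM + 1) scale, at 3.96, 4.51 and 4.33 FPKM with HEY1-WT KI and 7.64, 6.84 and 6.56 FPKM with HEY1-3KR KI (0.60 ± 0.0651). Cyclin B1 (Ccnb1), Cdk1 and the spindle pole kinase Aurka rose 1.74-fold, 1.74-fold and 1.86-fold. Foxm1, the transcription factor of late cell cycle genes, rose 1.60-fold, the smallest ratio of the class, from 14.3 ± 0.668 to 22.9 ± 1.12 FPKM.

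Checkpoint and anaphase genes rose with the exception of Pttg1, 8 of 9, at a class median of 0.57. Cdc20, the checkpoint's target and activator of the anaphase-promoting complex, had the highest level of the 55 genes, at 37.4, 34.5 and 36.4 FPKM with HEY1-WT KI and 73.7, 70.1 and 71.8 FPKM with HEY1-3KR KI (0.98 ± 0.0398; adjusted p = 2.4e-07, limma). Ube2c, a ubiquitin-conjugating enzyme of that complex, stood at 25.6, 24.5 and 25.8 FPKM with HEY1-WT KI and 41.6, 41.2 and 43.2 FPKM with HEY1-3KR KI, 1.66-fold higher. Bub1b, which encodes the checkpoint protein BUBR1, stood at 12.5, 13.1 and 11.9 FPKM with HEY1-WT KI and 23.2, 24.0 and 23.4 FPKM with HEY1-3KR KI (0.86 ± 0.0429). For each of these 3 the genotypes were clearly apart. Bub1, Ttk (the kinase MPS1), and Mad2l1 (the checkpoint protein MAD2) rose 1.54-fold, 1.59-fold and 1.53-fold, and Bub3, which binds BUB1 and BUBR1, 1.21-fold (0.26 ± 0.0441; adjusted p = 0.00103).

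Separase and its inhibitor went opposite ways. Espl1, separase, stood at 4.01, 3.88 and 3.90 FPKM with HEY1-WT KI and 7.63, 7.61 and 6.93 FPKM with HEY1-3KR KI, a log2 fold change of 0.77 ± 0.0506. Pttg1, securin, which holds separase inactive until anaphase, stood at 8.22, 7.24 and 7.85 FPKM with HEY1-WT KI and 6.84, 6.58 and 6.45 FPKM with HEY1-3KR KI. All HEY1-3KR KI values of Pttg1 were below all HEY1-WT KI values, and its log2 fold change of -0.20 ± 0.0534 (adjusted p = 0.0122, limma) corresponds to 1.17-fold lower FPKM. It was called lower under all 14 alternatives run, at adjusted p = 0.00476 to 0.0415.

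Kinetochore genes had low levels, none averaging above 7.85 FPKM over the 6 libraries, and 8 of 10 rose, at a class median of 0.58. Cenpa, the histone H3 variant that marks centromeres, stood at 4.87, 4.55 and 4.84 FPKM with HEY1-WT KI and 10.2, 9.59 and 10.7 FPKM with HEY1-3KR KI (0.96 ± 0.0520; adjusted p = 1.1e-06, limma), 2.14-fold higher without overlap. Cenpf, a large protein of the outer kinetochore, stood at 2.25, 2.52 and 2.47 FPKM with HEY1-WT KI and 4.49, 5.30 and 4.85 FPKM with HEY1-3KR KI, 2.02-fold higher, and the motor Cenpe and the inner kinetochore gene Cenpn rose 1.80-fold and 1.64-fold. The NDC80 complex binds microtubules directly. Its subunit Ndc80 rose from 2.72 ± 0.257 to 5.17 ± 0.154 FPKM, and Nuf2, Spc24 and Spc25 rose 1.56-fold, 1.56-fold and 1.40-fold. Spc24 stood at 6.55, 5.36 and 6.44 FPKM with HEY1-WT KI and 8.95, 8.98 and 10.8 FPKM with HEY1-3KR KI, with HEY1-3KR KI replicate 3 the highest and the genotypes apart.

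Cenph and Cenpk, subunits of the inner kinetochore network on the centromere, were the members that did not pass. Cenph stood at 4.30, 3.55 and 3.80 FPKM with HEY1-WT KI and 5.06, 3.94 and 4.92 FPKM with HEY1-3KR KI, and Cenpk at 0.891, 1.12 and 1.25 FPKM with HEY1-WT KI and 1.47, 1.12 and 1.53 FPKM with HEY1-3KR KI. In both, HEY1-3KR KI replicate 2 lay within the range of HEY1-WT KI, and replicates 1 and 3 lay above it. Their log2 fold changes were 0.21 ± 0.0893 and 0.19 ± 0.0918 (adjusted p = 0.0829 and 0.122, limma), with 95% intervals of 0.00177 to 0.409 and -0.0245 to 0.394, which end below the median of the 55 genes. Without HEY1-3KR KI replicate 2 both passed (adjusted p = 0.0127 and 0.0387), Cenph also without HEY1-WT KI replicate 1 (adjusted p = 0.0467). Cenph lies next to Ccnb1 on chromosome 13, with 2835 bases between the annotated genes (100759674 to 100775903 and 100778739 to 100786486, both on the minus strand), and Ccnb1 rose 1.74-fold, from 20.2 ± 0.231 to 35.1 ± 1.89 FPKM.

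The chromosomal passenger complex corrects faulty attachments and guides cytokinesis, and its 4 genes rose 1.71-fold to 1.87-fold (class median log2 fold change 0.83). Aurkb, its kinase, stood at 13.0, 14.2 and 13.8 FPKM with HEY1-WT KI and 25.2, 26.3 and 25.4 FPKM with HEY1-3KR KI, a change of 0.86 ± 0.0434. Incenp, the scaffold, stood at 16.3, 16.4 and 17.1 FPKM with HEY1-WT KI and 31.5, 30.3 and 30.3 FPKM with HEY1-3KR KI (0.85 ± 0.0377), and Birc5, survivin, at 12.9, 11.4 and 13.0 FPKM with HEY1-WT KI and 21.4, 20.6 and 21.9 FPKM with HEY1-3KR KI (0.73 ± 0.0548). The genotypes did not overlap for any of these genes or for Cdca8, borealin.

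Spindle motors and assembly factors rose in 13 of 13 cases, at a class median of 0.77. The kinesin Kif2c, which depolymerises microtubules at centromeres, stood at 8.20, 7.73 and 7.91 FPKM with HEY1-WT KI and 16.7, 16.6 and 15.3 FPKM with HEY1-3KR KI (0.94 ± 0.0468; adjusted p = 6.9e-07, limma). Kif11, the motor that pushes spindle poles apart, stood at 5.35, 5.18 and 5.01 FPKM with HEY1-WT KI and 10.4, 10.7 and 10.4 FPKM with HEY1-3KR KI (0.90 ± 0.0430). The most abundant were Tpx2, the activator of Aurora A at the spindle, at 19.8, 21.1 and 19.9 FPKM with HEY1-WT KI and 35.8, 35.2 and 34.6 FPKM with HEY1-3KR KI, and Kif20a. The latter, a motor of the midzone, stood at 18.7, 18.3 and 19.4 FPKM with HEY1-WT KI and 34.9, 36.3 and 34.1 FPKM with HEY1-3KR KI. All 4 genes separated the genotypes with wide gaps. At the low end Kif18a, which damps chromosome movements, stood at 0.937, 0.896 and 1.07 FPKM with HEY1-WT KI and 1.43, 1.59 and 1.52 FPKM with HEY1-3KR KI (0.35 ± 0.0615), again without overlap. Kif14, also low, had a ratio of 2.18-fold and a log2 fold change of 0.74 ± 0.0762, since the pseudocount of 1 shrinks changes of genes near 1 FPKM. Ratios of the other motors Kif4, Kif15, Kif20b, Kif22 and Kif23 were 1.72, 1.59, 1.78, 1.93 and 2.02. The spindle-associated Nusap1 and Hmmr rose 1.68-fold and 1.81-fold.

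All 4 cytokinesis genes rose, at a class median of 0.62. Prc1, which bundles midzone microtubules, stood at 10.9, 10.6 and 11.3 FPKM with HEY1-WT KI and 19.8, 21.8 and 21.3 FPKM with HEY1-3KR KI (0.88 ± 0.0471), and Racgap1, of the centralspindlin complex, at 12.7, 12.7 and 13.1 FPKM with HEY1-WT KI and 22.0, 21.2 and 21.5 FPKM with HEY1-3KR KI (0.70 ± 0.0371). Anln, anillin of the contractile ring, was the most abundant in HEY1-WT KI and had the smallest change, at 17.7, 17.8 and 18.1 FPKM with HEY1-WT KI and 25.1, 26.5 and 25.6 FPKM with HEY1-3KR KI (0.50 ± 0.0366; adjusted p = 6.8e-06, limma). Ect2, the exchange factor that activates RhoA at the equator, rose 1.51-fold.

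In the condensation and chromatin class 7 of 7 genes rose, at a median of 0.71. Mki67, the Ki-67 protein that coats mitotic chromosomes and serves as a proliferation marker, stood at 13.8, 15.1 and 15.5 FPKM with HEY1-WT KI and 30.1, 34.5 and 30.3 FPKM with HEY1-3KR KI (1.05 ± 0.0628; adjusted p = 2.0e-06, limma), with HEY1-3KR KI replicate 2 the highest. Top2a, which untangles sister DNA, stood at 19.8, 19.1 and 19.5 FPKM with HEY1-WT KI and 31.9, 34.0 and 31.8 FPKM with HEY1-3KR KI, 1.67-fold higher. Condensin I compacts chromosomes. Its subunit Ncapd2 stood at 14.8, 16.1 and 15.8 FPKM with HEY1-WT KI and 28.0, 28.6 and 28.4 FPKM with HEY1-3KR KI (0.82 ± 0.0407). Smc4, a core subunit that condensin II also uses, stood at 21.8, 21.9 and 21.0 FPKM with HEY1-WT KI and 30.7, 32.8 and 29.8 FPKM with HEY1-3KR KI (0.51 ± 0.0433). Neither gene's genotypes overlapped. Ncaph, Ncapg and Smc2 rose 1.73-fold, 1.62-fold and 1.47-fold.

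The 55 genes thus differed among themselves in size of change, and the 95% intervals of 15 lay above their own median and of 16 below it. Above were Plk1, Mki67, Ccna2, Cdc20, Cenpa, Kif2c, Kif11, Prc1, Kif23, Kif20a, Bub1b, Aurkb, Aurka, Incenp and Ncapd2. Below were Pttg1, Cenpk, Cenph, Bub3, Kif18a, Spc25, Kif15, Anln, Smc4, Smc2, Ect2, Mad2l1, Nuf2, Ttk, Bub1 and Ncapg. This ranking is on the log2(FPKM + 1) scale, which shrinks changes of low genes. Kif14, 2.18-fold higher, and Cenpf, 2.02-fold higher, are therefore not among those above. Class medians ran from 0.57 for checkpoint and anaphase genes to 0.83 for the passenger complex, with overlapping ranges. By ratio of FPKM, medians were 1.59 for checkpoint, 1.60 for kinetochore, 1.59 for cytokinesis and 1.85 for passenger complex genes. Differences between classes were not tested.

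**Figure D3:**
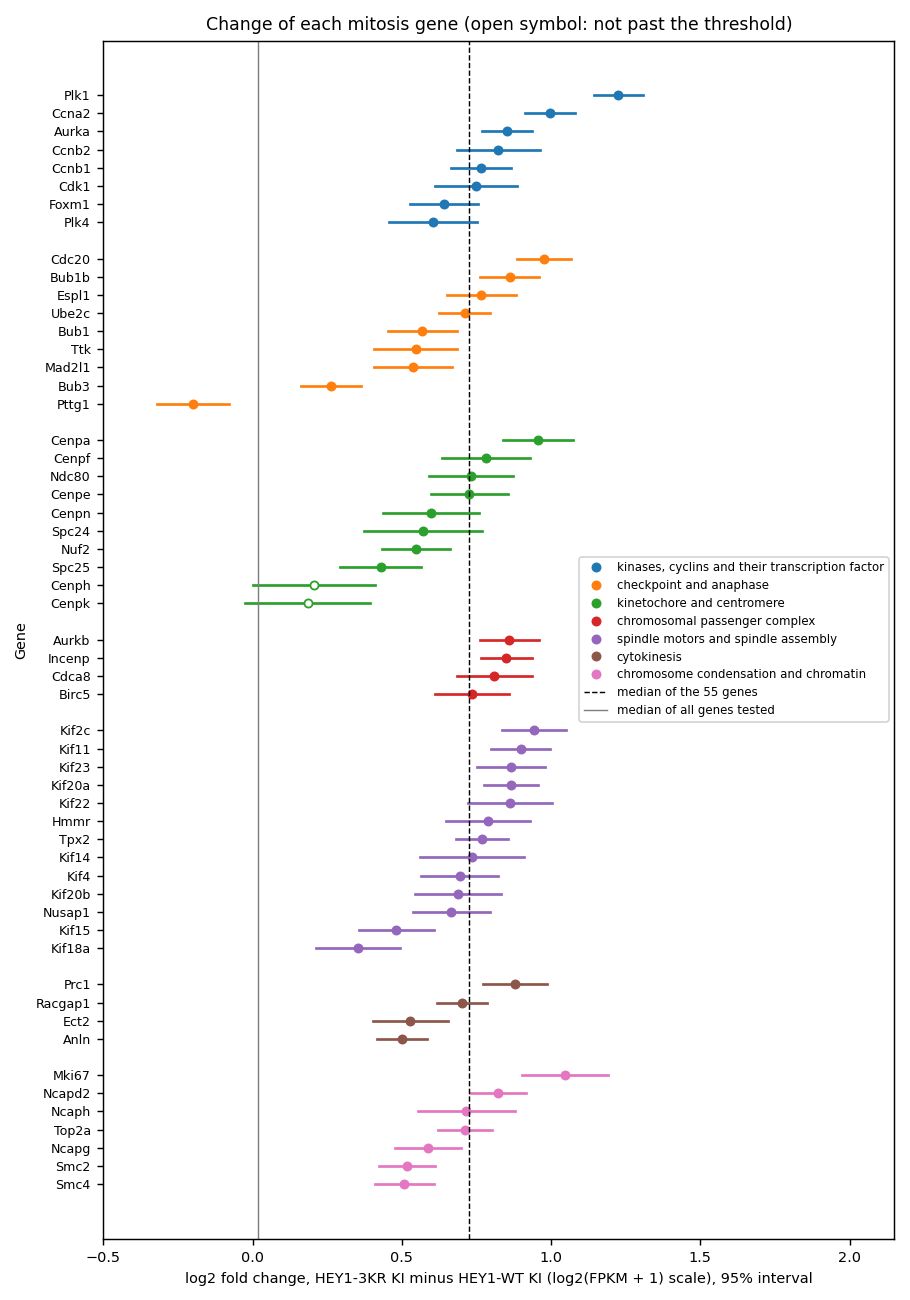
Log2 fold change of each of the 55 genes (HEY1-3KR KI minus HEY1-WT KI on the log2(FPKM + 1) scale, n = 3 libraries per genotype) with its 95% limma interval, by class; open symbols did not pass. Plk1 lies at 1.23 and Pttg1 at -0.20, and the dashed line marks the median of the 55 genes, 0.73, beside 0.02 for all genes tested.

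A wider set of 175 other genes of mitosis and of its transcriptional control, in 7 lists, was tested in the same way. Of 173 tested, 118 rose, 13 fell and 42 did not pass, with a median log2 fold change of 0.30. Over all genes tested, 29.9% were called higher and 23.4% lower. Other kinases and their regulators rose in 17 of 25 cases and fell in 2. Cdc25b, a phosphatase that activates CDK1, rose 1.94-fold and the mitotic kinase Pbk 1.79-fold, while Plk3, a stress-responsive relative of Plk1, fell from 28.2 ± 0.561 to 16.4 ± 0.134 FPKM, and Nek9 fell from 26.6 ± 0.772 to 23.9 ± 1.36 FPKM. Other checkpoint, anaphase-promoting complex and cohesin genes rose in 22 of 36 cases, led by Sgo1, shugoshin, which protects centromeric cohesin, 1.76-fold, and Spdl1, spindly, 1.71-fold, and none fell. In the list of other kinetochore genes 20 of 25 rose, led on the log2(FPKM + 1) scale by Hjurp, the chaperone that loads CENP-A, 1.87-fold, and Cenpm, 1.96-fold, and Zwint fell from 41.1 ± 0.787 to 33.4 ± 0.223 FPKM. Other spindle genes rose in 29 of 36 cases, with Cdca3, 1.94-fold, and Ckap2l, 1.84-fold, leading on the log2(FPKM + 1) scale and Aspm having the highest ratio, 2.04-fold. Psrc1, a proline-rich spindle protein, fell from 21.1 ± 0.497 to 13.9 ± 0.353 FPKM and the kinesin Kif2a from 14.7 ± 0.237 to 11.8 ± 0.394 FPKM.

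Of 21 cytokinesis genes outside the 55, 8 were higher and 4 lower (median 0.08), beside 29.9% and 23.4% of all genes tested. Arhgef39 and Cep55, an abscission organiser, rose 2.34-fold and 1.85-fold, while Rock2, a RhoA-activated kinase, fell from 34.9 ± 0.373 to 21.5 ± 0.973 FPKM and Pdcd6ip, which encodes ALIX, fell from 46.9 ± 1.42 to 40.6 ± 1.61 FPKM. Among other condensation genes 9 of 10 rose, Hmgb2, a chromatin protein, 2.06-fold and lamin B1 (Lmnb1) 2.03-fold, and Top2b, the topoisomerase also found in nondividing cells, fell from 9.47 ± 0.172 to 8.36 ± 0.227 FPKM. Subunits of the DREAM and MYB-MuvB complexes and related transcription regulators rose in 14 of 21 cases, with the 2 largest rises in Mybl2, the MYB subunit, 1.70-fold (from 7.65 ± 0.499 to 13.0 ± 0.338 FPKM), and E2f7, 1.58-fold. For comparison, S phase and replication genes rose in 43 of 44 cases with a median log2 fold change of 0.47, beside 0.73 for the 55, a difference that was not tested. Mcm5, of the replicative helicase, and Uhrf1, which maintains DNA methylation, led them on the log2(FPKM + 1) scale, at 1.82-fold and 1.79-fold, and Cdc6, which loads that helicase, had the highest ratio, 1.85-fold. Of 12 CDK inhibitors and G1 arrest genes 3 rose and 5 fell, where 29.9% and 23.4% of all genes tested did, with Cdkn2c, an INK4-type inhibitor, 1.84-fold higher and Cdkn2d 1.60-fold higher, while Cdkn2a, which encodes INK4A and ARF, fell from 14.9 ± 2.23 to 3.00 ± 0.465 FPKM and Ccng1, cyclin G1, from 147 ± 2.49 to 79.8 ± 2.37 FPKM.

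**Figure D4:**
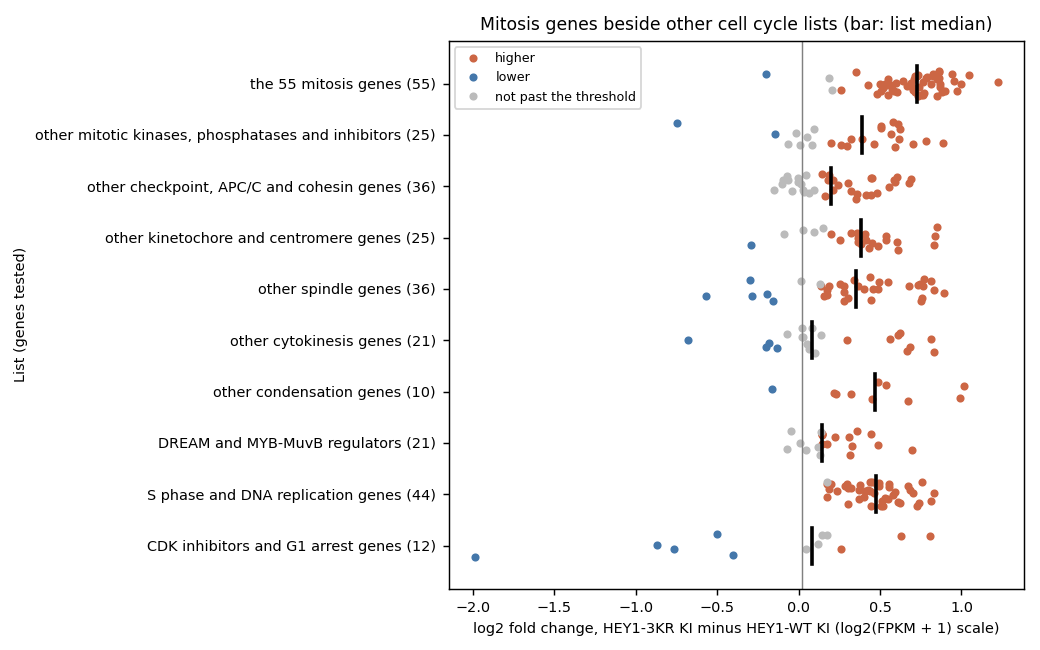
Log2 fold change (HEY1-3KR KI minus HEY1-WT KI, log2(FPKM + 1) scale) of every tested gene in the 55 mitosis genes and 9 other cell cycle lists, with 1 point per gene, orange for higher, blue for lower, grey for not past the threshold, and a black bar at each list's median. The 55 mitosis genes have the highest list median, 0.73, and S phase genes stand at 0.47.

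The cells that carried these transcripts were not separated by the assay. Endothelial markers were all detected, including Cdh5, VE-cadherin, from 77.7 ± 4.44 to 133 ± 2.89 FPKM, Cldn5, claudin 5, from 33.3 ± 1.25 to 66.5 ± 1.35 FPKM, Plvap from 25.4 ± 2.22 to 72.5 ± 5.76 FPKM and Pecam1 from 27.4 ± 0.543 to 43.2 ± 1.05 FPKM. Of the 18 endothelial markers 17 rose, their summed level lying between 308 and 318 FPKM in HEY1-WT KI and between 556 and 560.2 FPKM in HEY1-3KR KI. Macrophage and monocyte markers were far more abundant, between 6592 and 6788 FPKM in HEY1-WT KI and between 7669 and 8017 FPKM in HEY1-3KR KI, led by lysozyme (Lyz2, from 3138 ± 51.3 to 3482 ± 121 FPKM), Chil3 (from 2093 ± 41.4 to 1528 ± 36.4 FPKM) and the scavenger receptor Marco (from 396 ± 22.5 to 819 ± 29.2 FPKM), with 16 of 18 higher. Itgax and Chil3 fell. These counts leave out Cx3cr1, which passed the filter only through HEY1-3KR KI, and Siglecf, which was not tested. Fibroblast markers rose in 9 of 10 cases, leaving out Tcf21, which passed the filter only through HEY1-3KR KI, and Lum, which was not tested, their sum over all 12 genes lying between 858 and 908 FPKM and, in HEY1-3KR KI, between 1435 and 1468 FPKM, led by Col1a1 (from 317 ± 4.24 to 676 ± 11.9 FPKM), with Fn1 (from 276 ± 22.3 to 286 ± 17.8 FPKM, not past the threshold) and Col1a2 (from 197 ± 0.116 to 289 ± 1.93 FPKM) next. Epithelial markers rose in 9 of 11 cases, leaving out Epcam, Nkx2-1 and Slc34a2, which passed the filter only through HEY1-3KR KI, their sum over all 14 genes lying between 125 and 232 FPKM and, in HEY1-3KR KI, between 455 and 668 FPKM, with Sftpc, surfactant protein C (from 19.7 ± 5.42 to 106 ± 13.4 FPKM), Krt8 (from 36.7 ± 1.27 to 86.1 ± 1.14 FPKM) and Scgb1a1, a club cell secretoglobin (from 54.3 ± 50.6 to 146 ± 98.0 FPKM, not past the threshold), at the highest levels. Smooth muscle markers, led by Acta2, Tagln and Des, summed to between 1042 and 1063 FPKM in HEY1-WT KI and between 1039 and 1075 FPKM in HEY1-3KR KI, with 1 higher and 4 lower of 9. Mesothelial markers, led by Msln, Upk1b and Lrrn4, summed to between 159 and 160.1 FPKM and, in HEY1-3KR KI, between 107 and 109 FPKM, with 3 higher and 2 lower of 6. All these marker counts stand beside 29.9% called higher and 23.4% called lower over all genes tested, and the smooth muscle and mesothelial lists are short. Lymphocyte and neutrophil markers were low, with 6 of 8 under 1 FPKM in every library, the neutrophil genes S100a8 (from 2.50 ± 0.158 to 2.64 ± 0.563 FPKM) and S100a9 the most abundant, and the B cell gene Cd79a listed at 0 in all HEY1-3KR KI libraries. No marker was at 0 in all 6 libraries. The part of each cell type in the rise of the mitosis genes was not tested.

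**Figure D5:**
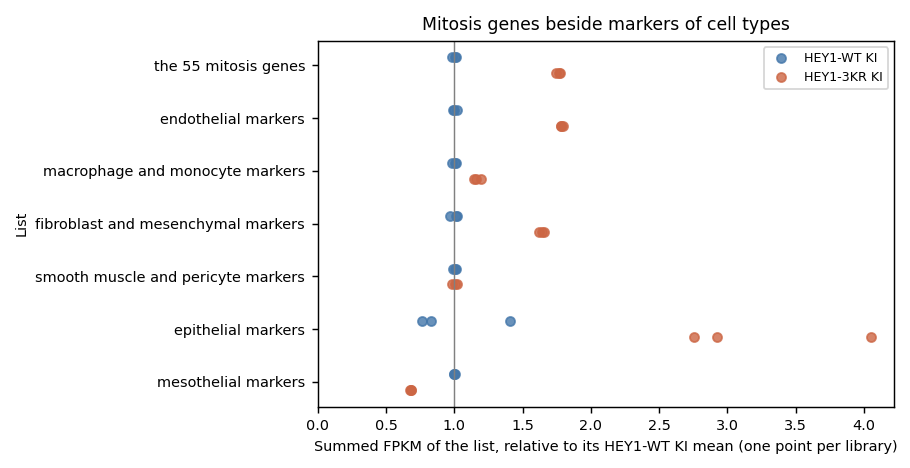
Summed FPKM of the 55 mitosis genes and of 6 cell type marker lists in each library, relative to the HEY1-WT KI mean of the same list (1 point per library, blue for HEY1-WT KI and orange for HEY1-3KR KI). Mitosis genes lie at 1.74 to 1.78 in HEY1-3KR KI, endothelial markers at 1.78 to 1.79, fibroblast markers at 1.62 to 1.65, macrophage markers at 1.14 to 1.20, epithelial markers at 2.76 to 4.05, smooth muscle markers at 0.986 to 1.02 and mesothelial markers at 0.673 to 0.683. Sums are weighted to the most abundant genes, such as Lyz2, Chil3 and Msln. Median ratios over the tested genes were 1.74 for mitosis genes and 1.76 for endothelial, 1.79 for macrophage and 1.74 for fibroblast markers. They were 3.54 for epithelial, 0.886 for smooth muscle and 1.29 for mesothelial markers. These medians include genes that passed the filter only through HEY1-3KR KI.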

How the data were processed

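RNA-seq covered 3 HEY1-WT KI and 3 HEY1-3KR KI libraries. Per the labels' protocols, total RNA was copied with random hexamers and the amplified library was circularised. The authors deposited FPKM per gene, 1 column per library. HISAT2 2.1.0, StringTie 1.3.3b, SAMtools 1.9, FastQC 0.19.7 and build mm10 are named, with no order, in the submitters' processing notes; the annotation, strand setting and handling of reads shared by gene copies are not given there. Because FPKM is relative to a library's total, abundant genes that rise push the others down; no further scaling was applied (column sums 258650 to 265967). Of 17450 symbols, 12 stood on several entries, where the one of highest mean kept the name.

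No read totals are given. For 2396 genes with a single GENCODE M21 transcript, FPKM times length was searched for the step that put most low values within 0.1 of whole multiples. The best steps were 0.0251 to 0.0304 FPKM times kilobase, but 47.0% to 59.3% of values fitted, where even spacing gives 20%, so reads were not recovered, the depth is unknown, no count test was run, and no interval for counting error is given. No gene had an identical nonzero value in a pair of libraries, so none was a copy of another.

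The 11432 genes reaching 1 FPKM in 3 or more libraries were compared with limma 3.58.1 in R 4.3.3 (log2(FPKM + 1), lmFit, eBayes with a variance trend, two-sided, no covariates, Benjamini-Hochberg adjustment, threshold 0.05). The procedure was tested on simulated data. Of 50 genes moved by a log2 fold change of 0.2, 11 were called, and 39, 48 and 49 of 50 were called at 0.4, 0.7 and 1. Among unmoved genes 3 were called. Changes near 0.2, the size of those of Cenph and Cenpk, were thus often missed in the simulation. Far fewer genes were moved in it than were called in the data, which makes its adjustment stricter. The simulated rates therefore do not give the rate of missed changes in the data. Ratios are of mean FPKM; intervals are 95% limma intervals. Motifs and coordinates come from RefSeq on GRCm38.p6. Named in full were, per class, the 2 largest changes, the 2 highest levels and the smallest change, plus members not called higher, and from each wider list the 2 largest rises and falls and from each marker list the 3 highest means; Espl1 was added after its values were seen, as were Foxm1, Pecam1 and the ratios of the other members. The members, lists and tests were chosen with earlier results of these data known. Alternatives were pseudocounts of 0.1 and 0.5, other filters, median-of-ratios and quantile scaling, no variance trend, the replicate number as a block, and leaving out each library. Tables used pandas 2.3.3 and figures matplotlib 3.10.9.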

Additional observations from a re-analysis of the deposited data

How the results depend on the processing

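The count of members called higher stayed at 52 under the other pseudocounts, filters, scalings and without a variance trend, and was 52 to 54 when single libraries were left out; the count called lower was 1, Pttg1, under every alternative run. Of the members' own log2 fold changes, 766 recomputed values stayed on the same side of the threshold with the same sign and 4 gained a call, all of Cenph or Cenpk. The median log2 fold change of the members moved from 0.73 to 0.79 with a pseudocount of 0.1, and lay between 0.71 and 0.74 without single libraries. The move with the pseudocount was larger than the 0.0544 SD between libraries. It is a change of scale on the same 6 libraries, which that SD does not measure. The share of all FPKM held by the 55 genes was higher in HEY1-3KR KI by 0.169 percentage points, by 0.162 after quantile normalization, and by 0.164 to 0.173 without single libraries. In the wider set 118 genes rose and 13 fell, with 109 to 118 and 11 to 15 across the alternatives. Within 100 bases before to 50 after the start, 65.4% of member promoters held a CHR and 61.5% a CCAAT box. Replicate numbers are shared by the genotypes, but deviations of same-numbered libraries correlated at -0.19, 0.25 and -0.27, so the shared numbers do not consistently pair the libraries. Other pairs reached 0.38 (HEY1-WT KI replicate 1 with HEY1-3KR KI replicate 3) and 0.27 (replicate 3 with replicate 1). A pairing in another order was not tested. With the replicate number as a block 53 members were called higher and 1 lower, Cenph being the added call (adjusted p = 0.0223, limma). For members near 1 FPKM, such as Cenpk and Kif18a, the low level and the pseudocount limit the precision of the change.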
